A study of Mus musculus with 12 samples.

Results

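Mixed and WT are 2 groups of Ly6C+ monocytes isolated from mouse fetal liver and profiled by bulk RNA-seq, with 3 libraries each, or 6 of the 12 libraries of a study on the transcription factors cMaf and Zeb2. All 6 carry the genotype label WT. The Mixed libraries were all labelled E15.5 (days of embryonic development), whereas WT 1 was labelled E13.5 and WT 2 and WT 3 were labelled E15.5. What was mixed in the group called Mixed is not given in the sources used here, nor how many embryos or litters each library holds. Transcripts of both sexes, Xist and the Y-linked Ddx3y, were found in each of the 6 libraries. The p-values measure the spread between these libraries, which may be technical. The other 6 libraries, from KO fetal liver at E13.5 (3) and WT bone marrow (BM, 3), served to estimate the spread and as a reference for the size of a shift. The comparison asked which genes differed between 2 sets of fetal monocytes of the same genotype label, and how far the differences rested on single libraries.

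Monocytes of the fetal liver arise there from haematopoietic progenitors and seed tissues with macrophages before and around birth. As a progenitor becomes a Ly6C+ monocyte it stops making the proteases of primary granules, slows ribosome production, and gains lysozyme, adhesion molecules and receptors that recognise damage and microbes. Bulk RNA cannot tell fewer cells of a type from less RNA per cell.

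Levels are given as CPM, a gene's counts scaled to a common library size after TMM scaling, a correction for differences in RNA composition between libraries. Library totals ran from 17384911 to 21703987 counts over the 6 libraries. A gene was called where edgeR's quasi-likelihood test gave a Benjamini-Hochberg adjusted p below 0.05 over the 14618 genes tested, and log2 fold changes are Mixed minus WT. In counts over gene lists, genes that rose or fell are those called higher or lower. Such counts are to be read beside the shares over all genes tested, 4.21% higher and 3.87% lower. The gene of the labelled antigen, Ly6c2, was at 490.3 CPM or more in each of the 6 libraries, as the label Ly6C+ monocyte would have it. The T cell gene Cd3e was at 0 counts in all 6, but Nkg7, of the same T and NK cell list, was at 2.19 to 5.17 CPM. The B cell genes Cd79b and Ighm were at 78.9 CPM or more and 56.2 CPM or more in each. These values do not measure purity. WT 3 stood apart in markers of other liver cells. Its level of the neutrophil granule gene Ltf was 587 CPM, against 178 and 236 CPM in WT 1 and WT 2 and 81.5, 79.6 and 90.8 CPM in Mixed 1, 2 and 3. The hepatocyte transcript Afp was at 39.7 CPM in WT 3 and between 2.4 and 7.81 CPM in the other 5, and the embryonic globin Hbb-y was at 38.1 CPM in WT 3 and at most 9.21 CPM in the other 5. Red cell genes set WT 3 less apart. The 18 listed, adult globins among them, summed to 2132 CPM in WT 3 and 1827 CPM in Mixed 3. They summed to 926.5, 1238, 1125 and 1251 CPM in Mixed 1, Mixed 2, WT 1 and WT 2. The part of these RNAs in the shifts below was not tested. Neither gene of the study's title was called. Zeb2 was at 179, 159 and 165 CPM in Mixed 1, 2 and 3 and 141, 143 and 165 CPM in WT 1, 2 and 3 (log2 fold change 0.16, SE 0.0683, adjusted p 0.164), and Maf, which encodes cMaf, was at 7.55, 10.6 and 9.38 against 13.9, 12.1 and 14.9 CPM (log2 fold change -0.57, SE 0.18, adjusted p 0.0539). Both loci overlap antisense genes, whose reads may be included. Xist, the X-inactivation RNA, was at 54.1, 45.9 and 56.1 CPM in Mixed and 89.2, 94.7 and 24.9 CPM in WT, with WT 1 and WT 2 above and WT 3 below every Mixed library, and the part of sex in the shifts was not tested. Of 10 sex-linked genes 1 was called, Ddx3x, which fell by 0.44 on the log2 scale.

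Many genes differed, each by a little. Of the 14618 genes, 1180 were called (8.07%), 615 higher in Mixed (4.21%) and 565 lower (3.87%). Their median absolute log2 fold change was 0.312, or 1.24-fold, and 1020 of the 1180 differed by less than 1.5-fold. Only 66 reached 2-fold, 14 higher and 52 lower. When the test asked for a change above 1.2-fold, 38 genes remained, 19 in each direction (0.26%), and against 1.5-fold edgeR called 0, with 241 genes at an unadjusted p under 0.05. Without WT 1, when all 5 libraries were labelled E15.5, 478 genes were called (3.27%), 244 higher and 234 lower, 462 of them among the 1180. When the labelled day entered a fit of the 9 fetal libraries, 397 were called, 203 higher and 194 lower. Only the WT group holds both days, so this fit also set Mixed against WT 2 and WT 3. It is therefore not a second, separate check of age. Without WT 3, 1486 genes were called (10.2%), 854 higher and 632 lower.

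**Figure D1:**
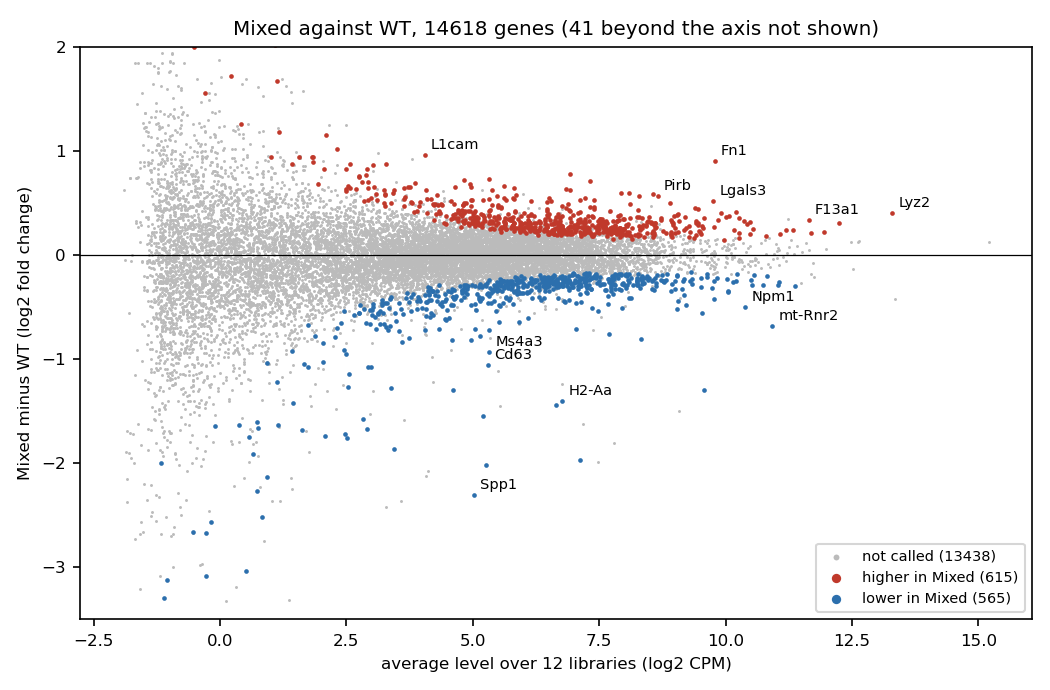
Each point is 1 of the 14618 genes, with its average level over the 12 libraries on the x axis (log2 CPM) and the log2 fold change of Mixed minus WT on the y axis. The 615 genes called higher (red) and 565 called lower (blue) form narrow bands on either side of 0 at high levels, and the few changes beyond 2-fold lie mostly among the falls.

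Among the steadiest rises were the paired immunoglobulin-like receptors, a family of cell surface proteins on myeloid cells in which Pirb carries inhibitory motifs and the Pira receptors signal through the Fc receptor gamma chain. Of 6 genes of this family and the related leukocyte immunoglobulin-like receptors, 4 rose, all 4 were called in each of the 6 fits that left out 1 library, and 0 fell (median log2 fold change 0.48, against -0.006 for all genes tested). The other 2 were not called and had negative values, down to -1.09. Pirb (chr7:3711409-3720391 in GRCm38, the mm10 build) was at 290.4, 279 and 299 CPM in Mixed 1, 2 and 3 and at 191, 187 and 208 CPM in WT 1, 2 and 3. The groups did not overlap, which the rule for naming genes required, and the rise was 1.48-fold (log2 fold change 0.57, SE 0.0543, adjusted p 8.7e-06). Pira2 was at 126, 122 and 123 CPM in Mixed and 66.1, 75.2 and 85.7 CPM in WT (log2 fold change 0.71, SE 0.0756, adjusted p 1.91e-05), and Lilra6 at 74.9, 71.4 and 81.5 against 41.6, 38.6 and 52.2 CPM (log2 fold change 0.78, SE 0.101, adjusted p 0.000406). Both were highest within WT in WT 3, which lay below every Mixed library, as the same rule required. The inhibitory receptor Lilrb4a, outside the Pir cluster, rose by 0.39. Reads from these near-identical genes may be split between them by the counting, so their separate values are less certain than their common direction.

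The bases upstream of the 3 Pir cluster genes are shown because the genes moved together and lie in 1 cluster. Each window holds the 250 bases before the RefSeq transcript start on the minus strand of chromosome 7 (GRCm38.p6), at chr7:3720383-3720632 for Pirb, chr7:3845052-3845301 for Pira2 and chr7:3915502-3915751 for Lilra6. The GENCODE model of Pirb starts a few bases further upstream. Capitals mark GAGGAA on either strand (TTCCTC where it reads on the other), the purine-rich box of the myeloid ETS factor PU.1.
Pirb: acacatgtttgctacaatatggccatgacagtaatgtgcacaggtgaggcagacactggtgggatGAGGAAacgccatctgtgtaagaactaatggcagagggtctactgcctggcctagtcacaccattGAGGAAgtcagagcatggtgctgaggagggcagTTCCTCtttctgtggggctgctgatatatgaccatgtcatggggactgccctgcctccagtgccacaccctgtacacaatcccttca
Pira2: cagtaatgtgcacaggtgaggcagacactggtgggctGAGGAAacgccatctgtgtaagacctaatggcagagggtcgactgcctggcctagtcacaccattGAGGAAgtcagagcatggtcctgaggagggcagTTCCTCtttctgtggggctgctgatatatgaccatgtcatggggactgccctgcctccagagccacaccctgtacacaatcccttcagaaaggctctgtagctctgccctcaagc
Lilra6: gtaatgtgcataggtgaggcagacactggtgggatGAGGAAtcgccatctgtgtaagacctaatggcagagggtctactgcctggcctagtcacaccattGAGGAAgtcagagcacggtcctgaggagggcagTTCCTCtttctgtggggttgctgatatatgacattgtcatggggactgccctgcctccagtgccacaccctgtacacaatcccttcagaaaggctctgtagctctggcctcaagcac
Each window has 3 matches, at positions -185, -120 and -87 in Pirb, -213, -148 and -115 in Pira2, and -215, -150 and -117 in Lilra6, counted from the transcript start. Over all 32851 promoters in the table, 23.3% hold at least 1 match in the same 250 bases. Among the 10045 genes tested that have a promoter there, 26.2% do. The share is 31.3% of 469 genes called higher and 26.5% of 393 called lower. The windows are near copies of each other, with 97.7% identity between Pirb and Pira2 over 222 aligned bases, 96.4% between Pirb and Lilra6 over 220, and 96.0% between Pira2 and Lilra6 over 248, so the matches are not independent of one another.

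Of 24 genes that mark classical monocytes, 10 rose (41.7%) and 1, Plac8, fell (median 0.171), and 7 of these 11 were called in all 6 fits without 1 library. Fn1, encoding the matrix protein fibronectin, was at 142, 142 and 136 CPM in Mixed and 60.6, 72.2 and 91.3 CPM in WT. No WT library reached the Mixed range, which the rule for naming genes required, and WT 1, the E13.5 library, was lowest (log2 fold change 0.90, SE 0.124, adjusted p 0.00231). Lyz2, the lysozyme of macrophages and monocytes, was at 8010.4, 8193 and 8002 CPM against 5715, 5715 and 6845 CPM (log2 fold change 0.41, SE 0.061, adjusted p 0.000675). Ly6c2, which encodes the Ly6C antigen of the label, was at 695, 698 and 704 CPM against 549, 538 and 490.3 CPM, here with WT 3 farthest from Mixed (log2 fold change 0.41, SE 0.0602, adjusted p 0.000406). The lectin receptor Clec4a3 rose by 0.51 and F13a1, a clotting factor subunit, by 0.34. Among 16 non-classical monocyte genes 3 rose (18.8%, against 4.21% of all genes tested) and 0 fell. The 3 were Nr4a1 (0.50), Ear2 (0.41) and Itgal (0.34). Without a call, 6 of the 16 had a negative value, down to -3. Itgal was called in all 6 fits without 1 library, Ear2 in 4 and Nr4a1 in 3. Of these 16 genes, 1 was called higher without WT 2, 2 were without Mixed 1, Mixed 3 or WT 1, with 1 lower without WT 1, and 5 were without WT 3. Their median, 0.092 over all libraries, was 0.046 without WT 1 and 0.204 without WT 3.

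Receptors that read nucleosides and lipids, with the kinases and regulators that tune them, also rose. Of 32, 9 were called higher (28.1%, against 4.21% of all genes tested) and 0 lower (median 0.128). Negative values without a call were held by 7 of the 32, down to -1.37. Adora2b, a receptor for adenosine, was at 29.96, 31.4 and 32.5 CPM in Mixed and 20.03, 19.03 and 19.6 CPM in WT, a tight separation in both groups (log2 fold change 0.68, SE 0.0796, adjusted p 3.37e-05). Grk3, a kinase that desensitises such receptors, was at 50.04, 45.5 and 46.8 against 30.2, 29.3 and 30.4 CPM (log2 fold change 0.66, SE 0.0688, adjusted p 1.08e-05). Gpr132 rose by 0.58 and the UDP receptor P2ry6 by 0.38, and S1pr4, a receptor for sphingosine 1-phosphate, by 0.34, the last called in 2 of the 6 fits. Without WT 1, 4 of the 32 were called higher, without Mixed 1, 5 were, and without Mixed 3, 6 were and 1 was lower.

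Of 22 chemokine receptors and homing molecules, 7 rose (31.8%, against 4.21% of all genes tested) and 0 fell (median 0.1). Another 8 had a negative value without a call, down to -2. Itgb7, an integrin chain of leukocyte homing to the gut, was at 66.1, 73.5 and 62.1 CPM in Mixed and 47.6, 43.5 and 42.2 CPM in WT, a 1.52-fold rise (log2 fold change 0.60, SE 0.0662, adjusted p 2.18e-05). Selplg, the selectin ligand PSGL-1, was at 352, 349 and 327 against 252, 263 and 275 CPM (log2 fold change 0.38, SE 0.0514, adjusted p 0.000203), and Itgal, a chain of the integrin LFA-1, at 269.7, 259 and 268 against 199.5, 214 and 214 CPM. The groups did not overlap for any of the 3, which for Itgb7 the rule for naming genes required. Of the 22, 4 were called higher without Mixed 1 or Mixed 3, and the median was 0.043 without WT 1. Fgr, a Src family kinase acting below integrins, was at 194, 196 and 206 against 118, 130.0 and 146 CPM (log2 fold change 0.59, SE 0.0672, adjusted p 2.3e-05), and the cell adhesion protein L1cam, with the largest rise among the genes named, at 5.58, 7.1 and 6.16 against 2.79, 3.48 and 3.34 CPM (log2 fold change 0.96, SE 0.135, adjusted p 0.000264).

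Lysosomal genes rose in 9 of 32 cases (28.1%, against 4.21% of all genes tested) and 1, Cd63, fell (3.12%, against 3.87%, median 0.14). The progranulin gene Grn was at 424, 389 and 419.9 CPM in Mixed and 287, 303 and 356 CPM in WT (log2 fold change 0.38, SE 0.0678, adjusted p 0.00197), and the protease gene Ctsh at 297, 279 and 279.7 against 225, 215 and 230.1 CPM (log2 fold change 0.35, SE 0.0658, adjusted p 0.00237). Of the 32, 2 were called higher without WT 1, 3 without Mixed 3 or WT 2, 4 without Mixed 1 and 12 without WT 3, and the median was 0.087 without WT 1. Genes of lipid handling were among the rises. Abcg1, an exporter of cholesterol, was at 327, 332 and 349 against 257, 252 and 273 CPM (log2 fold change 0.37, SE 0.0658, adjusted p 0.00192), and the desaturase gene Scd2 at 475, 469.6 and 481 against 369, 372 and 371 CPM (log2 fold change 0.36, SE 0.0528, adjusted p 0.000417). Of 16 liver X receptor and lipid export genes 3 rose (18.8%, against 4.21% of all genes tested) and 0 fell (median 0.112). Another 6 had a negative value without a call, down to -3. Without WT 3, 7 of the 16 were called higher, and without Mixed 2, Mixed 3, WT 1 or WT 2, 2 were, with 1 lower without WT 1. The median was 0.054 without Mixed 3. Lgals3, which encodes the secreted lectin galectin-3, was among the steadiest rises at 744, 776 and 729.7 against 513, 520.4 and 537 CPM (log2 fold change 0.52, SE 0.0507, adjusted p 8.7e-06), with fold changes from 0.49 to 0.54 over the 6 fits.

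**Figure D2:**
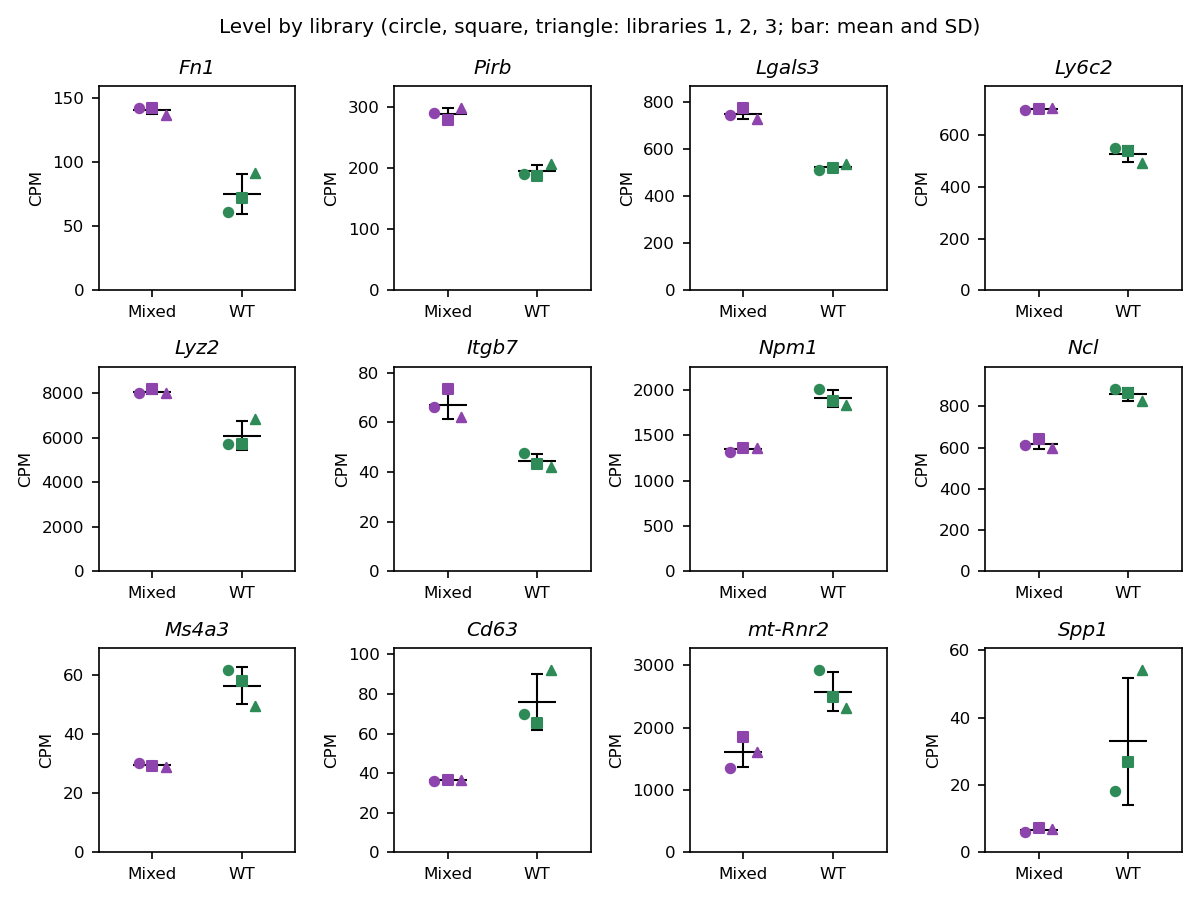
Level in CPM (y axis, from 0) in the 3 Mixed and 3 WT libraries for 12 genes, each with the group mean and SD. Mixed and WT do not overlap in any of the 12 panels, which the rule for naming genes required for all but Ly6c2, Lyz2 and mt-Rnr2. The Mixed libraries lie close together for most genes while WT 3 stands away from WT 1 and WT 2 for Spp1, Cd63 and Lyz2.

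Genes that build ribosomes were lower in Mixed. Of 23 ribosome biogenesis and MYC target genes, 9 fell and 0 rose (median -0.183), and 22 of 23 had a negative value. Without WT 2, 5 were called lower, without Mixed 1 or WT 1, 6 were, and 5 were called in all 6 fits. Npm1, encoding the nucleolar protein nucleophosmin (chr11:33152287-33163206), was at 1316, 1366 and 1359 CPM in Mixed and 2012, 1883 and 1833 CPM in WT (log2 fold change -0.50, SE 0.0502, adjusted p 8.7e-06). Ncl, for nucleolin, was at 612, 642 and 596 against 885, 865 and 824 CPM (log2 fold change -0.48, SE 0.058, adjusted p 4.65e-05), and Nop58, part of the small nucleolar ribonucleoprotein, at 145, 164 and 165 against 231, 214 and 200.2 CPM (log2 fold change -0.45, SE 0.0666, adjusted p 0.000437). The highest level of each lay in WT 1. The values of WT 2 and WT 3 were also above all 3 Mixed libraries, which the rule for naming genes required. Structural proteins of the cytosolic ribosome shifted by less but more uniformly, 20 of 44 lower and 0 higher (median -0.151), and 43 of 44 had a negative value. Rpl5 fell by 0.35, Rpl23 and Rpl30 by 0.34 and Rps24 by 0.33 on the log2 scale. Without Mixed 1, 8 of the 44 were called lower, and 8 were called lower in all 6 fits.

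Mitochondrial chaperones fell too, with Hspe1 at 157, 172 and 177 against 266, 236 and 232 CPM (log2 fold change -0.54, SE 0.0682, adjusted p 8.96e-05) and Hspd1 at 611, 625 and 649 against 822, 881 and 759 CPM (log2 fold change -0.39, SE 0.0555, adjusted p 0.000355). These 2 genes overlap head to head, so without strand, reads near their starts could count for either. Transcripts of the mitochondrial genome were lower as a block: 13 of 15 fell and 0 rose (median -0.33), 11 of them in all 6 fits. The 16S rRNA mt-Rnr2 was at 1358, 1843 and 1610.3 CPM in Mixed and 2924, 2489 and 2311 CPM in WT (log2 fold change -0.68, SE 0.126, adjusted p 0.0113), with Mixed 1 lowest and WT 1 highest. The mitochondrial share of counts was 1.602%, 1.77% and 1.755% in Mixed and 2.231%, 2.018% and 2.183% in WT (1.709 ± 0.0932 against 2.144 ± 0.112, SD, n = 3 each; exact two-sided permutation test p = 0.1, the smallest that 3 against 3 allows). Nuclear genes of oxidative phosphorylation had a median of -0.019, with 4 of 27 lower (14.8%, against 3.87% of all genes tested) and 0 higher. Of the 27, 0 were called without WT 1 or without Mixed 1, and 2 were without Mixed 3 or WT 2.

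**Figure D3:**
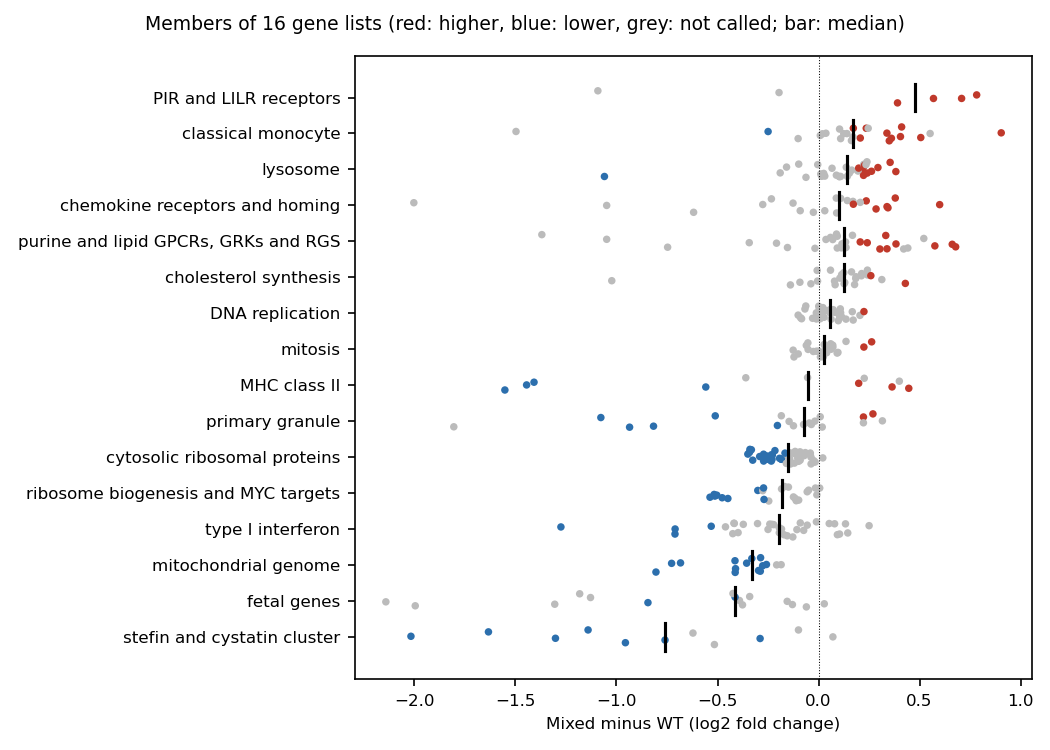
Log2 fold changes (x axis) of the members of 16 gene lists (rows), with the median of each as a bar. The medians of the receptor, classical monocyte and lysosomal lists lie to the right of 0, with some members to the left. The ribosomal and mitochondrial lists lie to the left with almost all members on 1 side, and the MHC class II and primary granule lists hold called members on both.

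Genes of the granulocyte and progenitor stages were lower in part. Of 19 primary granule genes, 5 fell (26.3%, against 3.87% of all genes tested) and 2 rose (10.5%, against 4.21%). Without Mixed 1, Mixed 3, WT 1 or WT 2, 3 were called lower. The fit without WT 3 called 4 of the 19 higher, and each of the other 5 fits called 1. Ms4a3, a gene of granulocyte-monocyte progenitors, was at 30.3, 29.5 and 28.8 CPM in Mixed and 61.9, 58.04 and 49.6 CPM in WT, a 1.91-fold difference (log2 fold change -0.94, SE 0.0959, adjusted p 1.07e-05). Srgn, for the granule proteoglycan serglycin, fell by 0.51 and Nkg7 by 1.08 on the log2 scale, while Elane rose by 0.22. Of 11 genes of the stefin and cystatin cluster, which encode cysteine protease inhibitors of neutrophils, 7 fell (median -0.76). Stfa2 was at 3.02, 2.64 and 2.74 against 7.14, 7.91 and 18.8 CPM (log2 fold change -2.02, SE 0.406, adjusted p 0.0204), with WT 3 far above WT 1 and WT 2, and Cstdc5 at 137, 143 and 133 against 280.2, 254 and 484 CPM (log2 fold change -1.30, SE 0.241, adjusted p 0.0152). In 1 of the 7, Csta2, the call held in all 6 fits, and 1 of the 11 was called lower without Mixed 1 or Mixed 3, 4 without Mixed 2 or WT 1 and 9 without WT 2. Among 24 neutrophil genes the median was -1.04, but 2 fell (8.33%, Chil1 and Wfdc21) and 1 rose (4.17%, Csf3r). These shares were near those over all genes tested, 3.87% lower and 4.21% higher. Ltf alone varied from 178 to 587 CPM within WT. The median of the 24 was -0.678 without WT 3 and -1.317 without WT 1. Of the 24, 5 were called lower without WT 1, 1 without Mixed 1 or Mixed 3, and 3 higher without WT 3. Stfa and Cst genes are near-identical copies, so reads may be split between them.

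MHC class II genes changed in both directions. H2-Aa, H2-Ab1, H2-Eb1 and Cd74, the antigen-presenting chains and their invariant chain, fell, while H2-DMa and H2-DMb1, which edit the peptides loaded on class II, rose. H2-Aa was at 4.16, 2.32 and 3.46 CPM in Mixed and 8.26, 7.01 and 11.1 CPM in WT (log2 fold change -1.41, SE 0.191, adjusted p 0.00105). H2-DMa was at 124, 125 and 122 against 86.98, 89.1 and 96.4 CPM (log2 fold change 0.45, SE 0.0598, adjusted p 0.000194). The groups did not overlap in either case, which the rule for naming genes required. These 4 falls and the H2-DMa rise were called in all 6 fits, 5 of the 7 calls in the list of 11. The 3 rises in the list became 1 without Mixed 1 or WT 2. Levels of the class II chains in these fetal libraries were low beside KO, where H2-Aa averaged 359 CPM, and bone marrow, where it averaged 64.5 CPM. The class I gene H2-Q7 had 2 counts over the 3 Mixed libraries and 53 over the 3 WT libraries, a ratio of 27.8 (95% exact interval 7.33 to 236, counting error only). Class I genes are near copies, so its reads may be shared with others.

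Of 33 type I interferon genes 4 fell (12.1%, against 3.87% of all genes tested) and 0 rose (median -0.194). Rsad2, the antiviral protein viperin, was at 2.15, 2.55 and 1.88 CPM in Mixed and 3.46, 4.74 and 7.66 CPM in WT (log2 fold change -1.27, SE 0.232, adjusted p 0.00256), and Ifi205 at 13.4, 11.3 and 14.8 against 21.98, 23.3 and 19.3 CPM (log2 fold change -0.71, SE 0.111, adjusted p 0.00114). The other 2 were Ifit3 and Ifit1, of which Ifit1 was called in 1 of the 6 fits. Without WT 3, 7 of the 33 were called lower, and the median was -0.116 without Mixed 2. Slfn4, an interferon-inducible gene of myeloid cells, was at 7.23, 7.1 and 6.16 against 14.5, 17.8 and 17.9 CPM (log2 fold change -1.30, SE 0.221, adjusted p 0.00505), the single called gene of 8 Schlafen genes.

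Of 30 tissue macrophage genes, 4 rose (13.3%, against 4.21% of all genes tested) and 4 fell (13.3%, against 3.87%). Without Mixed 1, 1 was called lower, and without Mixed 3, 2 were, and the median of -0.505 over all libraries was -0.212 without WT 3. Spp1, for osteopontin, was at 5.99, 7.19 and 6.88 CPM in Mixed and 18.1, 26.7 and 54.1 CPM in WT, widely spread within WT (log2 fold change -2.31, SE 0.382, adjusted p 0.00955). Cd63, a tetraspanin of late endosomes, was at 36.2, 36.4 and 36.6 against 70.1, 65.4 and 92.1 CPM, nearly constant in Mixed (log2 fold change -1.06, SE 0.114, adjusted p 3.37e-05). Dab2 fell by 1.67 and Hmox1 by 0.41 on the log2 scale, each called in 2 of the 6 fits, Hmox1 not in that without WT 3, and Adgre1, Axl and Cd68 rose by 0.32, 0.26 and 0.26 beside Lgals3. WT 3, which held the highest level of Spp1, Cd63, Dab2 and Hmox1, also held the most Ltf, Afp and Hbb-y RNA, and whether the 2 patterns share a source was not tested. The fetal gene Hmga2, a chromatin protein of fetal blood stem cells, was at 4.3, 4.64 and 3.66 against 7.48, 8.4 and 6.76 CPM (log2 fold change -0.84, SE 0.189, adjusted p 0.00805), at a locus that antisense genes overlap. Of 15 fetal genes 2 fell (13.3%, against 3.87% of all genes tested), 0 without WT 2 and 1 without Mixed 1, Mixed 2, Mixed 3 or WT 1. Cdk6 (-0.47) and Ccnd2 (-0.64), which drive entry into the cell cycle, were lower and E2f2 (0.37) and Cdkn2d (0.30) higher. Of 32 DNA replication genes 1 rose (3.12%) and of 25 mitosis genes 2 rose (8%), against 4.21% of all genes tested. Without Mixed 1 or WT 1, 0 were called in either list.

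Other genes among the largest and steadiest changes had varied functions. Xdh, the enzyme xanthine dehydrogenase, was at 224, 211 and 218 CPM in Mixed and 133, 153 and 154 CPM in WT (log2 fold change 0.57, SE 0.0637, adjusted p 2.27e-05), and Naaa, a lysosomal amidase, at 92.9, 89.5 and 92.4 against 65.9, 66.4 and 55.6 CPM (log2 fold change 0.55, SE 0.0646, adjusted p 3.37e-05). The glycosyltransferase gene Galnt9 was at 18.8, 17.03 and 18.8 against 10.5, 10.01 and 12.3 CPM (log2 fold change 0.73, SE 0.101, adjusted p 0.000236), and Ndrg1 at 16.3, 15.8 and 16.5 against 8.65, 9.65 and 12.4 CPM (log2 fold change 0.65, SE 0.107, adjusted p 0.000924). Dglucy rose by 0.64, Hlcs by 0.65, Syne2 by 0.65 and Natd1 by 0.66. The groups did not overlap for any of these 8 rises, which the rule for naming genes required. Cd69, an early activation antigen, was at 30.3, 28.05 and 26.7 against 53, 49.6 and 43.2 CPM (log2 fold change -0.78, SE 0.113, adjusted p 0.000489), and Hnrnpa1, an RNA-binding protein gene, at 829.7, 901 and 883 against 1202, 1174 and 1119 CPM (log2 fold change -0.42, SE 0.0497, adjusted p 3.64e-05). Chil1 was at 4.03, 3.96 and 4.19 against 9.87, 12.9 and 24.5 CPM, again with WT 3 highest. Prss57, a serine protease gene of neutrophil granules, was lower by 0.82 in the full fit, but none of the 6 fits without 1 library called it.

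Other lists are given here beside the shares over all genes tested (4.21% higher and 3.87% lower). Of 36 myeloid transcription factors 4 rose (11.1%) and 1 fell (2.78%), but 2 were called higher without Mixed 1 or WT 1 and 1 without WT 2. Irf5, an interferon regulatory factor, was at 367, 363 and 368 against 286, 295 and 321 CPM (log2 fold change 0.28, SE 0.0555, adjusted p 0.00327), and the progenitor factor Myb at 12.2, 17.2 and 13.04 against 22.2, 21.4 and 20.8 CPM (log2 fold change -0.60, SE 0.138, adjusted p 0.0103), not called without Mixed 1 or Mixed 3. Of 18 complement and Fc receptor genes 3 rose (16.7%), namely Cfp (0.31), Fcgrt (0.32) and C3 (0.50), the last called in 1 of the 6 fits, and 2 were called higher in every fit but that without WT 3, which called 4. Of 22 Toll-like and lectin receptor genes 2 rose (9.09%), Tlr13 (0.29) and Myd88 (0.25), and 0 were called without Mixed 1.

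The number of calls varied with single libraries. All 1180 genes kept their direction in each of the 6 fits without 1 library, which is fixed where groups do not overlap, and in 1156 of the 1180 the 2 groups did not overlap, against 3949 of all genes tested (27%). The count itself ran from 419 without Mixed 1, 412 of them among the 1180, to 1486 without WT 3. In all 6 fits 329 genes were called (2.25%), 189 higher (1.29%) and 140 lower (0.958%), and 44 of the 1180 were called in none. WT 1 lay farthest from the mean of Mixed in 58.1% of the called genes against 40.7% of all genes tested, and WT 3 nearest in 58.9% against 42.9%. Among the Mixed libraries, Mixed 1 lay farthest from the mean of WT in 54% of the called genes against 41.9% of all genes tested. The median log2 distance of the called genes from the Mixed mean was 0.376 for WT 1, 0.316 for WT 2 and 0.257 for WT 3.

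**Figure D4:**
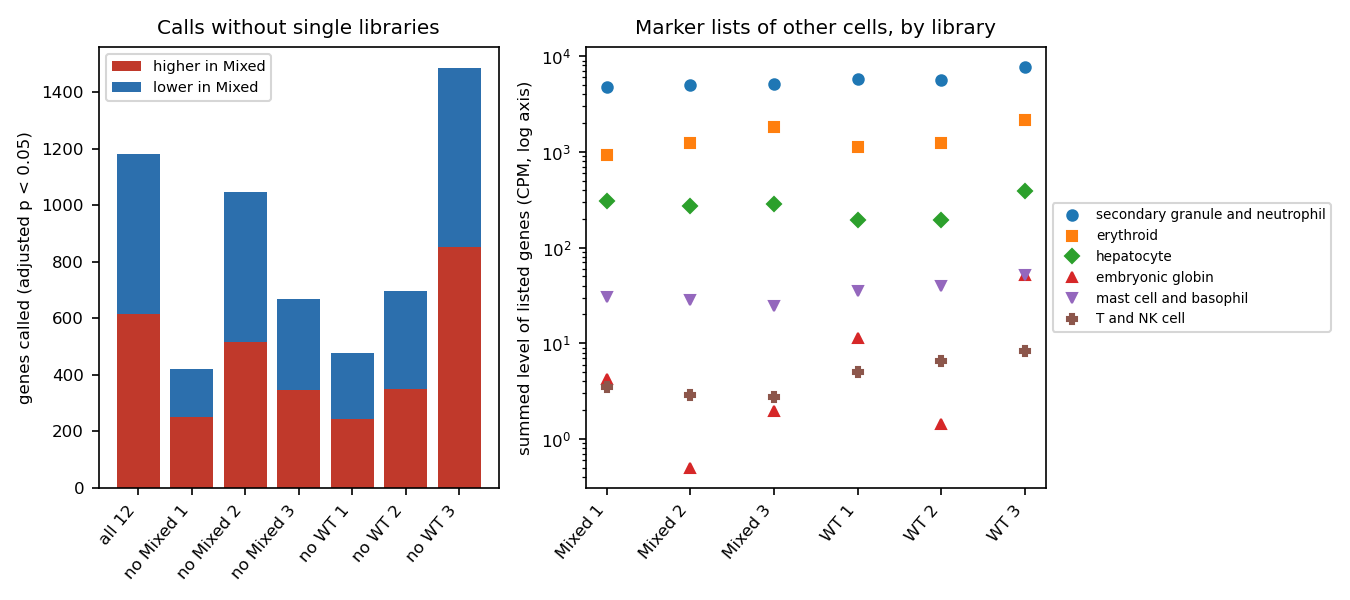
Left, genes called higher (red) and lower (blue) in Mixed with all 12 libraries (1180) and without each Mixed or WT library, down to 419 without Mixed 1. Right, summed level of 6 marker lists of other cells in each library (CPM, log axis), where WT 3 is highest for each list shown. Not shown are B cell genes, highest in Mixed 1, and plasmacytoid dendritic cell genes, highest in WT 2. Trf made 306 of the 393 CPM of the hepatocyte list in WT 3, and it averaged 537 CPM in BM monocytes, so this sum is not a measure of hepatocytes alone.

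Set against 2 groups that share no library with this comparison, most of the called genes had the direction of bone marrow against KO. Of the 615 genes higher in Mixed, 82.3% were higher in BM than in KO (453 called higher, 75 called lower), and of the 565 lower genes 7.79% were (27 called higher, 477 called lower). Over all genes tested the share was 50.1%, with 31.8% called higher and 32% called lower. BM and KO differ in tissue, age and genotype together, and in part in sex markers, which cannot be told apart here. No read of the Y-linked Ddx3y was found in any BM library or in KO 3, while KO 1 held 53.8 CPM of it and KO 2 held 44.4 CPM. Without WT 1 the shares were 88.5% and 8.55%. Npm1 averaged 450.0 ± 27.6 CPM in BM, 1347 ± 27.1 CPM in Mixed and 1909.8 ± 92.4 CPM in WT, and 1646 ± 30.9 CPM in KO (SD, n = 3 each). Fn1 averaged 3288 ± 174 CPM in BM, 28.6 ± 3.02 CPM in KO and 140.1 ± 3.18 CPM in Mixed, with the 3 WT libraries between KO and Mixed.

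**Figure D5:**
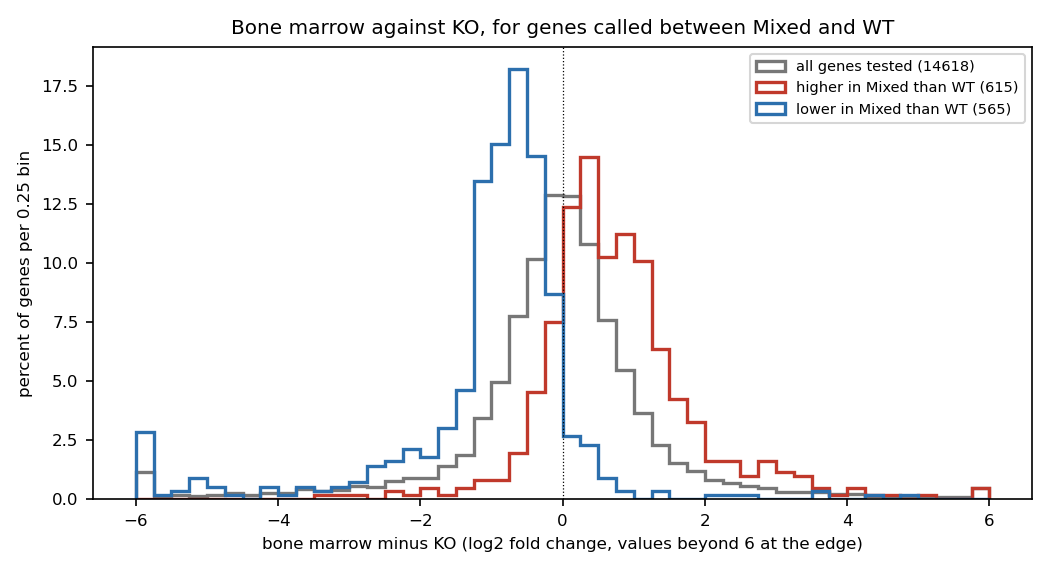
Percent of genes (y axis) by log2 fold change of bone marrow minus KO (x axis), for all 14618 genes tested (grey), the 615 higher in Mixed than WT (red) and the 565 lower (blue). The red outline lies mostly to the right of 0 and the blue mostly to the left, 82.3% and 7.79% above 0.

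Base composition moved with the direction as well. Genes called higher had a median exon GC content of 53% and a median exon length of 4482 bases, and genes called lower 45.1% and 2844.5 bases, against 49.0% and 3784 bases over all genes tested. Of 3 equal sets of genes by GC, the lowest had 83 higher and 307 lower, and the highest 335 higher and 71 lower. Without WT 1 the medians were 53.1% and 46.3%. Within each GC set, the share higher in BM than in KO stayed between 79.4% and 86.7% for the genes higher in Mixed and between 7.04% and 9.14% for the lower ones. The median deviation of high GC genes from the average of the 6 libraries was -0.071 in WT 1 and -0.047 in WT 2 but 0.032 in WT 3, beside 0.031, 0.053 and 0.017 in Mixed 1, 2 and 3, so WT 3 lay with Mixed on this measure. The part of base composition in the gene shifts was not tested.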

How the data were processed

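The 12 libraries were Ly6C+ monocytes (3 each of Mixed, WT, KO and BM), grouped by their titles. The deposited file holds the authors' estimated counts per Ensembl gene, partly not whole (28.5% of values), with no normalization. The submitters' processing notes name mm10, DRAGEN, STAR, featureCounts and Salmon without saying which step made the file, nor whether strand was used. Of 55774 rows, 287 repeats of a gene identifier were dropped, and counts were rounded. Genes passed edgeR's filterByExpr (minimum count 10, minimum total 15), leaving 14618 of 55487. edgeR 4.0.16 (quasi-likelihood, robust, TMM, 4 group means, 12 libraries, R 4.3.3) tested Mixed against WT with Benjamini-Hochberg adjustment, and the test was checked on simulated data. SEs are the log2 fold change over the root of its F. Leave-one-out fits, DESeq2 1.42.0, limma 3.58.1 (voom) and other settings were alternatives, and a fit that leaves 2 libraries in a group assumes the pooled spread. Library totals ran from 17384911 to 24473471 counts.

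Gene positions come from GENCODE vM21 and promoters from RefSeq (GRCm38.p6). Strand use is not given in the sources used here, so L1cam, Fn1, Hlcs, Dglucy, Ndrg1, H2-DMa and other named genes that overlap antisense genes may include their reads. The members and lists (52 lists of textbook genes) were chosen with earlier results of these data known, so list counts are descriptions. Genes were named by rule: Zeb2 and Maf, then, among called genes above 3 log2 CPM with groups that do not overlap, the 15 largest changes each way, the 10 smallest p-values each way among genes called in every leave-one-out fit, and, for each list, up to 4 called members above 1 log2 CPM or, where none is called, the member of highest level. Plac8, Elane, Adgre1, Axl, Cd68 and H2-DMb1 fall outside it and were named after their values were seen, as were Ltf, Afp, Cd3e, Cd79b, Xist, Ddx3y and Uty.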

Additional observations from a re-analysis of the deposited data

How the results depend on the processing

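The 1180 called genes, 615 higher and 565 lower, numbered 1111 to 1260 without single KO or BM libraries. Leaving out single Mixed or WT libraries gave 419 to 1486 called, 244 to 854 higher and 170 to 632 lower. With embryonic day as a covariate the counts were 397, 203 and 194. Against a 1.2-fold change they were 38, 19 and 19, and against 1.5-fold 0 in each direction, where 241 genes had an unadjusted p under 0.05. These tests ask for a larger change by construction, and the cause of the other drops was not tested. DESeq2 called 1524 genes, voom 1134, and other scaling factors, filters and rounding 1170 to 1378. No named gene reversed direction while called. The replicate numbers gave no clear pairing of the libraries. The deviations of same-numbered libraries correlated at 0.004, 0.012 and 0.042. Mixed 1 and Mixed 3 correlated best with the WT library of the same number, and Mixed 2 with WT 1 (0.032). Every pair lay between -0.04 and 0.042. With the replicate block 1168 genes were called over the 12 libraries (624 higher, 544 lower) and 1022 over Mixed and WT alone (523 higher, 499 lower). Depth leaves genes under a few CPM with wide errors.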
